A study of Mus musculus with 57 samples.

Results

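Gene expression was compared between the BNST/POA (a dissection joining the preoptic area and the bed nucleus of stria terminalis) of female mouse pups that received testosterone propionate on the day of birth (XX+T) and the same region of female pups that received the peanut oil vehicle alone (XX). All pups were C57BL/6J mice killed at 4 days of age. The comparison held 5 XX and 5 XX+T arrays of the 57 arrays of the series, taken by their labelled age, region and treatment. Oil-injected males (XY, 5 arrays from the same age and region) are given for context. Each array was hybridised with RNA from a pool of tissue from 3 animals, so a replicate is a pool and nothing can be said of single pups. Each litter received either testosterone or oil, so that the hormone and the litter cannot be told apart, and males and XX females were both drawn from oil-injected litters. The remaining arrays came from the striatum and from 60-day-old mice, which had been gonadectomised and given testosterone implants.

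Perinatal testosterone, which the testes of male pups secrete around birth, organises the rodent brain for life. In the brain it acts through the androgen receptor or, after conversion to oestradiol by aromatase, through oestrogen receptors, and these receptors are transcription factors that bind hormone response elements in DNA. The BNST and the preoptic area are among the most sexually dimorphic regions of the rodent brain, and the hormone alters how many of their neurons survive the first postnatal weeks. A 4-day-old pup is within this sensitive period and before most of the cell death that sets the adult dimorphism. The response elements searched in the promoters of the measured list genes were GGTCA and TGACC separated by any 3 bases for the oestrogen receptor, and AGAACA and TGTTC separated by any 3 bases for the androgen and glucocorticoid receptors, each read on both strands. The oestrogen element stood in 23 of 32851 RefSeq promoters of the GRCm38.p6 build, or 0.07%, and the androgen and glucocorticoid element in 16, or 0.0487%. Each was found in the promoter of 1 measured list gene. These promoters are shown because they are the only ones among 232 measured list genes with a full element, and the capitals mark it. The window ran from 250 bases before to 50 bases after the start of transcription, on chromosome 17 at chr17:8849735-8850034 for Pde10a and on chromosome 10 at chr10:21993640-21993939 for Sgk1, both on the plus strand.
Pde10a: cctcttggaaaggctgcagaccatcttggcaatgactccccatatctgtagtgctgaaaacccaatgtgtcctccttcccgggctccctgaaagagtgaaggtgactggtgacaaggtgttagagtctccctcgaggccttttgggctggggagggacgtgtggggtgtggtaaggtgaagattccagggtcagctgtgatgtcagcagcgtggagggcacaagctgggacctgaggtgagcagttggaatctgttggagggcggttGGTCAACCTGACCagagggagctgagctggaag
Sgk1: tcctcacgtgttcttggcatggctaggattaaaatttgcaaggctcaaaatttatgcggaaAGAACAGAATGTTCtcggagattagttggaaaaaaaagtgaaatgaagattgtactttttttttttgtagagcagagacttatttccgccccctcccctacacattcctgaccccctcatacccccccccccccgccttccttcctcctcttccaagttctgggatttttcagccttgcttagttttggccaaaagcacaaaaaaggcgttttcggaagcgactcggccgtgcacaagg

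Sgk1, a kinase that glucocorticoids induce, had log2 intensities of 10.82, 11.15, 11.15, 11.00 and 10.97 in XX pools 1 to 5 and 11.10, 11.13, 11.08, 11.21 and 11.14 in XX+T pools 1 to 5. The groups overlapped, and the difference was 0.12, with a 95% interval from -0.04 to 0.28. Pde10a, a cyclic nucleotide phosphodiesterase of striatal neurons, differed by 0.01, from -0.16 to 0.18. Neither gene passed the test, and a match to the letters of an element is not evidence that a receptor binds it.

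Testosterone at birth was followed at day 4 by no expression difference that passed the test across all genes. Of 13731 probes, 0 were called by limma's moderated test at a Benjamini-Hochberg adjusted p under 0.05 (percent called, 0), and the smallest adjusted p was 0.9996. At an unadjusted p under 0.05 there were 505 probes, or 3.68% of those tested, 336 higher (2.45%) and 169 lower (1.23%) in XX+T. Over all probes, 48.9% of differences were above 0. Differences are given as XX+T minus XX on the log2 scale throughout, with the limma standard error. The median absolute difference was 0.06, the largest rise in level was 0.67, and 10 probes differed by more than 0.5 in either direction. The highest pool of one group lay below the lowest pool of the other for 115 probes, or 0.838%.

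How small a difference the 10 pools could have shown was computed from the standard errors. The median standard error was 0.0986, and the median 95% interval extended 0.218 to each side of the difference. A probe had to differ by 0.858 at the median to be called alone, and by 0.506 if 100 probes were called with it. No probe could have been called alone for a difference of 0.3, and 4.76% of them could for a difference of 0.5. For a change of 2-fold, which is 1 on the log2 scale, 60.9% could have been called alone. The 95% interval lay wholly within 1 of no change for 99.2% of probes, within 0.5 for 83.9% and within 0.3 for 50%. A change of 2-fold was therefore outside the interval of nearly every measured probe, each taken singly, and changes of 0.3 or less were below what the test could call for any of them alone.

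**Figure D1:**
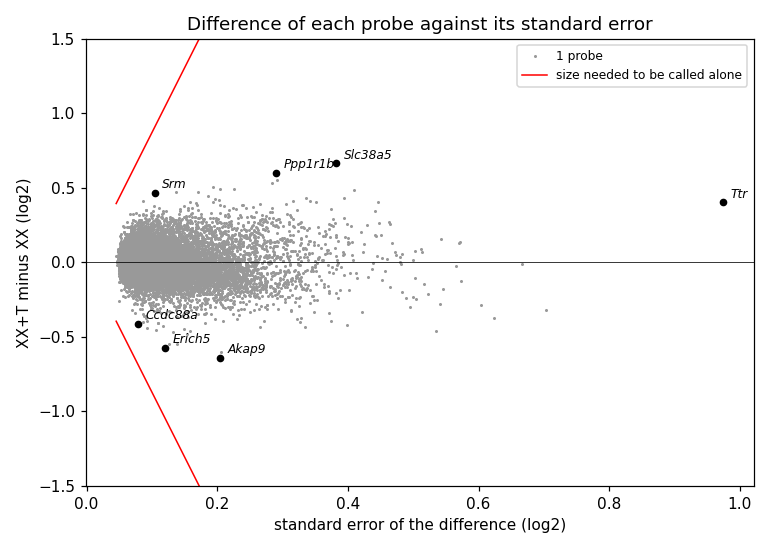
The difference of each of the 13731 probes, XX+T minus XX in log2 units (vertical axis), against its limma standard error in log2 units (horizontal axis), with 7 genes named. The red lines mark the size a probe needs to be called alone, and no probe lies beyond them.

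Among the genes with the smallest unadjusted p that were lower in XX+T, Ccdc88a led. It encodes girdin, an actin-binding protein of migrating cells. Its log2 intensity was 10.34, 10.35, 10.39, 10.30 and 10.31 in the XX pools and 9.92, 9.99, 9.68, 9.92 and 10.13 in the XX+T pools. Every XX+T pool was below every XX pool. The difference was -0.41 (SE 0.08, from -0.59 to -0.24), or 0.752-fold, and its adjusted p from limma was 0.9996, as for the other genes of this comparison named here. Kdm6a, an X-linked histone H3 lysine demethylase that escapes X inactivation, was measured by a pair of probes. On the first it was 9.58, 9.97, 9.79, 9.79 and 9.78 in XX and 9.55, 9.27, 9.30, 9.30 and 9.49 in XX+T, with no overlap and a difference of -0.40 (SE 0.09). On the other probe of Kdm6a the groups overlapped and the difference was -0.28, from -0.46 to -0.10. Erich5 was 8.48, 8.91, 8.69, 8.72 and 8.95 in XX against 8.34, 8.01, 7.97, 8.08 and 8.47 in XX+T, a difference of -0.57 (SE 0.12). Rhbdl2, a rhomboid protease, differed by -0.44, Ubr1, a ubiquitin ligase of the N-degron pathway, by -0.34, Lpl, the lipoprotein lipase, by -0.46 and Cntnap5b, of the contactin-associated family, by -0.26, each with no overlap between the groups.

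Of the genes with the smallest p that were higher in XX+T, 8 are given here. Srm, the spermidine synthase of polyamine production, was 10.15, 9.67, 10.13, 9.90 and 10.25 in XX and 10.41, 10.52, 10.55, 10.54 and 10.42 in XX+T. All 5 XX+T pools were above all XX pools, and the difference was 0.47 (SE 0.10, from 0.24 to 0.70). The other probes of Srm gave 0.37 and 0.28. Fkbp1a, the immunophilin bound by FK506, was 12.34, 12.30, 12.29, 12.10 and 12.13 in XX and 12.48, 12.51, 12.61, 12.62 and 12.56 in XX+T, a difference of 0.33 (SE 0.07). Tpi1, a glycolytic enzyme, differed by 0.41 on the probe chosen by its p and by 0.17 and 0.04 on its other probes, so this gene rests on 1 probe. Atp6v0d1, a subunit of the vacuolar proton pump, differed by 0.32, 0.27, 0.17 and 0.11 on its 4 probes. Med27, of the Mediator complex, differed by 0.33, Gfra4, a receptor of the GDNF family, by 0.28, Msto1, a mitochondrial distribution factor, by 0.27 and Slc35f4 by 0.24. All 16 genes chosen by p, Ddx3y included, had groups that did not overlap, against 0.838% of all probes, and this was fixed by choosing them on the same contrast.

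**Figure D2:**
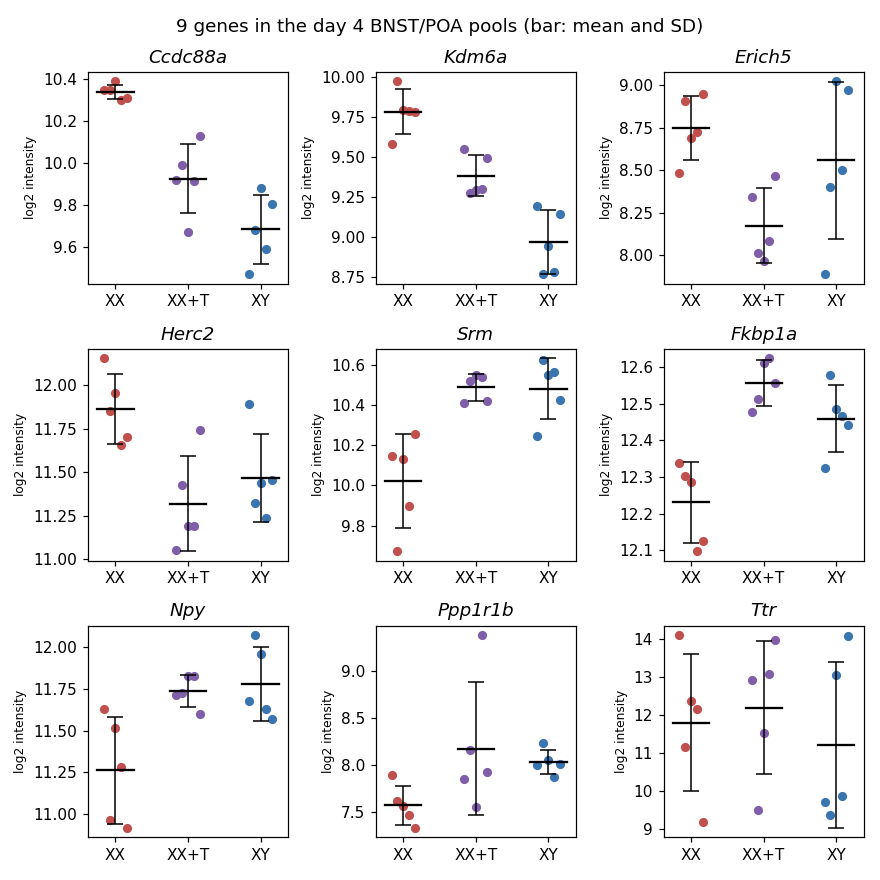
Log2 intensity (vertical axes) of 9 genes in the 5 XX, 5 XX+T and 5 XY pools of day 4 BNST/POA. Each point is 1 pool, the horizontal bar is the group mean and the error bar its SD. Ccdc88a, Kdm6a and Erich5 had no overlap between XX and XX+T, whereas Ttr spanned from 9.18 to 14.11 within XX alone.

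The 6 genes with the largest differences in each direction were taken whatever their p, and Erich5, at -0.57, was also among those with the smallest. Slc38a5, an amino acid transporter, was 10.98, 9.11, 10.47, 9.07 and 9.74 in XX and 9.69, 10.74, 10.65, 11.00 and 10.61 in XX+T. The difference was 0.67, or 1.59-fold, and its interval ran from -0.18 to 1.51. Without XX pool 1, in which Slc38a5 was as high as in the XX+T pools, it was 0.94. Ppp1r1b, which encodes DARPP-32 of striatal projection neurons, was 7.89, 7.62, 7.56, 7.46 and 7.33 in XX and 7.85, 8.15, 7.55, 9.38 and 7.92 in XX+T. Its difference of 0.60 fell to 0.30 without XX+T pool 4, the 1 high pool, and its other probes gave -0.01 and 0.01. Pltp, a phospholipid transfer protein, differed by 0.55 (from -0.09 to 1.20), Igfbp7, a secreted protein of vessel walls, by 0.53 (from -0.10 to 1.16) and Prelid1, a mitochondrial lipid transfer protein, by 0.49 (from 0.04 to 0.95). Lhx8, a homeobox factor of basal forebrain cholinergic neurons, was 8.67, 8.44, 8.78, 9.15 and 8.71 in XX and 9.14, 9.73, 8.65, 9.25 and 9.51 in XX+T, a difference of 0.51 (from 0.08 to 0.93).

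In the other direction, Akap9, which anchors protein kinase A at the centrosome and Golgi, was 11.91, 11.43, 11.81, 11.24 and 11.29 in XX and 10.55, 11.01, 10.47, 10.97 and 11.50 in XX+T. Only XX+T pool 5 reached the XX range, and the difference was -0.64 (from -1.09 to -0.19), or 0.641-fold. Another probe of Akap9 gave -0.60 and its remaining probe, of low intensity, -0.20. Herc2, a ubiquitin ligase, differed by -0.55 (from -0.85 to -0.24) and Srrm2, a splicing cofactor, by -0.46 on one probe and -0.25 on the other. Hsd3b2, a 3-beta-hydroxysteroid dehydrogenase of steroid synthesis, was 10.53, 10.85, 10.74, 10.86 and 11.03 in XX and 10.79, 10.21, 10.21, 10.35 and 10.13 in XX+T. Its difference was -0.47 (from -0.76 to -0.17), XX+T pool 1 lay within the XX range, and the enzymes of this family have close copies whose cross-hybridisation was not tested. Tenm4, a teneurin of neuronal surfaces, had a difference of -0.46 with an interval from -1.64 to 0.72, and without XX pool 1 it was -0.15.

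Most of the variation between the 10 arrays lay within the groups. The XX and XX+T group means accounted for 6.49% of the sum of squares over all probes, less than the 11.1% that 1 of 9 degrees of freedom holds by number alone. Without XX pool 1 the share was 13.8%, so the order against 11.1% rested on 1 pool. The share held by number alone is itself somewhat larger than 11.1% with 1 array fewer. Arrays correlated at 0.982 on average within a group and at 0.983 between groups, and for 2 of 10 arrays the closest other array was of the same group. The first principal component held 71.5% of the variance and did not separate the groups. Its scores were 30.5, -32.6, 10.8, -28.8 and 8.94 in XX pools 1 to 5 and -23.9, 23.2, -11.7, 5.73 and 17.6 in XX+T pools 1 to 5. The pools of both groups were intermixed along its length, with XX pools at both ends, and group membership accounted for 1.06% of the variance in these scores. The second component held 7.83% of the variance, and its scores were -1.39, -8.90, -3.94, -3.69 and -9.34 in XX and 4.58, 2.01, 15.3, 6.80 and -1.40 in XX+T. Only XX+T pool 5 scored below 0 among the treated pools, and group membership accounted for 59% of the variance in these scores.

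**Figure D3:**
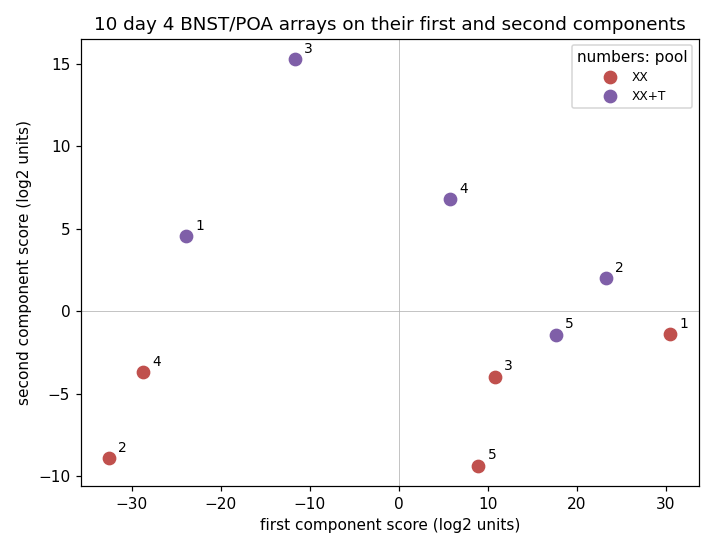
Scores of the 5 XX and 5 XX+T arrays on their first component (horizontal axis, 71.5% of the variance) and second component (vertical axis, 7.83%), in log2 units, with the pool number beside each point. On the first component XX runs from -32.6 to 30.5 and XX+T from -23.9 to 23.2, and XX and XX+T lie mostly apart on the second.

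The genes at the ends of the first component showed what differed between pools of one treatment. Zfhx3, a homeobox transcription factor, was 12.06, 9.27, 11.45, 9.10 and 11.38 in the XX pools and 9.06, 11.44, 9.18, 10.44 and 11.54 in the XX+T pools. Map1b, a microtubule-associated protein of growing axons, was 13.36, 10.55, 12.35, 10.38 and 12.52 in XX and 10.48, 12.98, 10.82, 12.13 and 12.68 in XX+T. Both genes were low in XX pools 2 and 4 and in XX+T pools 1 and 3. Nfix, Agap1, Zmiz1 and Nav1 lay at the same end. At the other end lay Pmch, the precursor of melanin-concentrating hormone from the lateral hypothalamus, and Rpl13a, a protein of the large ribosomal subunit, which was 10.42, 11.93, 10.97, 11.72 and 11.11 in XX and 11.68, 10.55, 11.60, 10.99 and 10.53 in XX+T. The 500 probes of each end differed in the length of their genes, with a median genomic span of 45.2 kb at the Zfhx3 end and 11.6 kb at the Rpl13a end, against 22.4 kb between. The part of RNA quality or dissection in this axis was not tested.

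The second component, on which the treated pools mostly stood apart, had genes of several cell types at one end. Its 20 highest loadings included Cldn5, Esam and Acta2 of vessels, Ttr of choroid plexus, Mbp and Clu of glia, the neuropeptide genes Npy, Hcrt and Oxt, and Ppp1r1b, Slc38a5, Igfbp7, Pltp, Vtn and Ifitm3, and Akap9, Tenm4, Zfhx3, Erich5, Ank2, Reln and Herc2 among its 20 lowest. A high loading was not always a large group difference. Slc38a5 differed by 0.67, but Hcrt, Oxt and Mbp by 0.09, 0.10 and 0.15, and Ttr by 0.40 with an interval from -1.75 to 2.56. Other markers of these cell types were mixed. Of 4 choroid plexus genes 3 were higher and 1 lower in XX+T, and of 6 oligodendrocyte genes 4 were higher and 2 lower. The median genomic span was 9.82 kb in the 500 probes of the high end and 73.4 kb in those of the low end. Across all probes with a known span, the median difference was 0.02 for 3367 probes of genes under 10 kb and -0.03 for 1657 probes of genes of 100 kb or more. The corresponding XY minus XX medians were 0.06 and -0.07, and those comparisons share the 5 XX arrays.

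The 8 genes with the widest spread within groups were Ttr, Zfhx3, Map1b, Pmch, Agap1, Ptgds, Nfix and Zmiz1. Ttr, the thyroid hormone carrier made by choroid plexus, was 14.11, 11.16, 12.36, 12.17 and 9.18 in XX and 12.92, 9.50, 11.53, 13.08 and 13.97 in XX+T. Its SD was 1.81 in XX and 1.74 in XX+T, and its difference of 0.40 had an interval from -1.75 to 2.56. Ptgds, a prostaglandin D synthase of meninges and glia, was 11.49, 10.02, 11.04, 10.14 and 10.10 in XX and 11.27, 12.11, 9.60, 11.45 and 9.03 in XX+T. For each of these 8 genes a difference of 2-fold would not have been called. Over all probes the median pooled SD was 0.16, with 0.172 over XX pools, 0.141 over XX+T pools and 0.14 over XY pools. The scatter of beads within an array was smaller, with a median standard error of 0.0574, and its square was 13% of the variance between pools at the median. At the upper quartile it was 32.3%. The spread between arrays also holds labelling and hybridisation, which cannot be told apart from the animals here.

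A covariate for the pool axis was added after the data had been seen, in 2 versions. The first was the position of each array on the first component of the other 20 day 4 arrays, after each group's own mean was subtracted. Those 20 arrays hold no XX or XX+T BNST/POA pool, but they include the XX and XX+T striatum pools. Whether these share animals with the tested pools was not known. The component held 44.5% of the within-group variance of the 20 arrays. With it in the limma fit the median standard error fell to 0.0652, and 23 probes were called at an adjusted p under 0.05, 21 lower and 2 higher in XX+T. The second version, the score of each array on the first component of the 10 arrays themselves, gave 27 called probes, 25 lower and 2 higher. The genes called with the first version included Alk, a receptor tyrosine kinase (-0.50, adjusted p 0.0365), Smarca2, a chromatin remodelling ATPase (-0.38, adjusted p 0.0365), Myh10, a non-muscle myosin (-0.41, adjusted p 0.0365), and Ptprd, a receptor tyrosine phosphatase of synapses (-0.48, adjusted p 0.0365). Ccdc88a (-0.42), Kdm6a (-0.39), Herc2 (-0.57), Erich5 (-0.56), Rhbdl2 (-0.43), Tenm4 (-0.61) and Zfhx3 (-0.54) were also called lower, and Srm (0.45) and Gipc1 (0.38), an adaptor of membrane receptors, higher. Leaving out 1 pool moved the count of the first version from 0 to 126, and it was 0 for 7 of the 10 pools left out. It was 112 without XX pool 1, 10 without XX pool 5 and 126 without XX+T pool 5. The positions were computed from the same probes that were then tested, so these p-values may be too small.

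Genes of the hormone's own machinery and its targets were all uncalled. Of 7 measured steroid receptors and coregulators, 5 were higher and 2 lower, with a median difference of 0.08, beside a median of -0.002 over all probes. Without XX pool 2 the median of these 7 was 0.0025. Pgr, the progesterone receptor and a classical oestrogen target, was 7.30, 7.39, 7.27, 7.47 and 7.15 in XX and 7.45, 7.36, 7.39, 7.43 and 7.39 in XX+T, a difference of 0.09 from -0.06 to 0.23. It was detected above background on 3 XX and 5 XX+T arrays. Greb1, a coregulator that oestrogen induces, was 7.35, 7.25, 7.27, 7.18 and 7.25 in XX and 7.44, 7.37, 7.35, 7.31 and 7.33 in XX+T, a difference of 0.10 from -0.02 to 0.22, and it was detected on 1 XX array and on all 5 XX+T arrays. Fkbp5, an immunophilin that androgens and glucocorticoids induce, differed by 0.08, from -0.41 to 0.57. Of 16 steroid-responsive genes, 9 were higher, 7 lower and 0 called, with a median of 0.02, and 12 had intervals within 0.5 of no change. Of 11 genes of steroid synthesis and metabolism, 6 were higher and 5 lower. Srd5a3, a polyprenol reductase of the 5-alpha-reductase family, had the largest difference of that list, 0.21, with the same value on another probe and 0.09 on the remaining one. The larger difference of Hsd3b2 given above, -0.47, was not part of that list, whose lowest difference was -0.08. Several receptors and the aromatase gene were not analysed here.

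Genes of the processes that testosterone is known to direct in this region were compared next. Of 25 cell death genes, 12 were higher and 13 lower, the median was -0.002, and 23 had intervals within 0.5 of no change. Bcl2, an anti-apoptotic gene, differed by -0.09 (from -0.33 to 0.15), -0.05 and -0.03 on its probes. Ngfr, the p75 neurotrophin receptor, was 8.03, 7.55, 7.72, 7.68 and 7.67 in XX and 7.86, 8.23, 7.80, 8.15 and 8.24 in XX+T, a difference of 0.32 from 0.07 to 0.58. Among 13 genes of prostaglandin signalling and dendritic spines, 4 were higher and 9 lower. Gria2, a subunit of AMPA receptors, differed by -0.18 and -0.19 on its probes, and Ptges3, a co-chaperone also named as a prostaglandin E synthase, by -0.25 (from -0.60 to 0.10). Of 16 genes of GABA and glutamate transmission 7 were higher and 9 lower, with a median of -0.05. Of 24 genes of neuron growth and migration 9 were higher and 15 lower, with a median of -0.05, and Slit2, an axon guidance ligand, differed by -0.34 (from -0.59 to -0.09). Leaving out each pool in turn moved that list's median from -0.13 to 0.04, so its sign rested on single pools.

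Neuropeptide genes had among the larger differences of the lists. Of 26 measured, 16 were higher and 10 lower, 0 were called, and the median was 0.02. Npy, which encodes neuropeptide Y, was 11.63, 10.96, 11.52, 11.28 and 10.92 in XX and 11.71, 11.72, 11.83, 11.83 and 11.60 in XX+T. Only XX+T pool 5 lay below the highest XX pool, and the difference was 0.48 from 0.17 to 0.78. Gal, the galanin gene of preoptic neurons, was 11.52, 11.29, 11.26, 11.33 and 11.02 in XX and 11.90, 11.67, 11.57, 11.69 and 11.31 in XX+T, a difference of 0.34 from 0.08 to 0.60. Cartpt, of the CART peptides, differed by 0.27, and Pmch by -0.28 with an interval from -1.62 to 1.05. Oxt and Avp, of oxytocin and vasopressin, differed by 0.10 and -0.03, and Kiss1, of kisspeptin, by -0.17, and these values lay within wide intervals. Of 18 genes dimorphic in the adult hypothalamus, 10 were higher and 8 lower, with a median of 0.03.

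Of 15 genes of the DNA methylation machinery, 9 were higher and 6 lower, with a median of 0.05. Mbd3, a member of the methyl-CpG binding domain family, differed by 0.29 (from 0.01 to 0.58), Apex1, a base excision repair nuclease, by 0.24 (from 0.04 to 0.44) and Dnmt1, the maintenance methyltransferase, by -0.26 (from -0.58 to 0.05). Of 20 histone deacetylases and demethylases, 5 were higher and 15 lower, with a median of -0.04, beside 51.1% of all probes that were lower. Kdm6a, the histone demethylase given above with larger differences, was not in this list. Hdac4, a class II deacetylase, differed by -0.20 (from -0.60 to 0.19) and Sirt2, a NAD-dependent one, by 0.23 (from -0.15 to 0.60). Without XX pool 1 these were -0.08 and 0.37. The study listed genes with a methylation difference at this age from the same tissue pools, so that list is not independent of these animals. Of its 23 genes measured here, 10 were higher and 13 lower, 0 were called, and the median was -0.02. Igfbp7 had its largest difference, 0.53, and Kalrn, an exchange factor of dendritic spines, the largest in the other direction, -0.38.

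Markers of vessels had larger median differences than the other lists, although none was called. All 6 endothelial genes were higher in XX+T, with a median of 0.29, and all 5 mural and fibroblast genes, with a median of 0.27. Leaving out 1 pool moved the endothelial median from 0.186 (without XX pool 4) to 0.514 (without XX pool 1), and the mural median from 0.0538 (without XX+T pool 4) to 0.46 (without XX pool 3). Against the same XX pools, the medians of XY were 0.42 and 0.483. Cldn5, a tight junction gene of brain vessels, was 11.34, 10.78, 11.25, 10.49 and 10.65 in XX and 11.02, 11.46, 11.55, 11.61 and 11.08 in XX+T, a difference of 0.44 from 0.03 to 0.85. The mean level of the 6 endothelial genes ran from 8.38 to 9.50 over the XX pools and from 8.67 to 9.32 over the XX+T pools, so the ranges overlapped. All 6 astrocyte genes were higher with a median of 0.11, 3 of 4 choroid plexus genes with a median of 0.23, and 3 of 6 microglial genes with a median of -0.01. Of 7 striatal genes 6 were higher with a median of 0.10, and of 8 genes of the hypothalamus and preoptic area 5 were higher with a median of 0.07. Mog and Mobp, oligodendrocyte genes of mature myelin, were below background on all XX and XX+T arrays. More cells of a type and more RNA per cell cannot be told apart in such pools, and the part of these markers in Slc38a5, Pltp, Igfbp7 and Ppp1r1b was not tested.

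**Figure D4:**
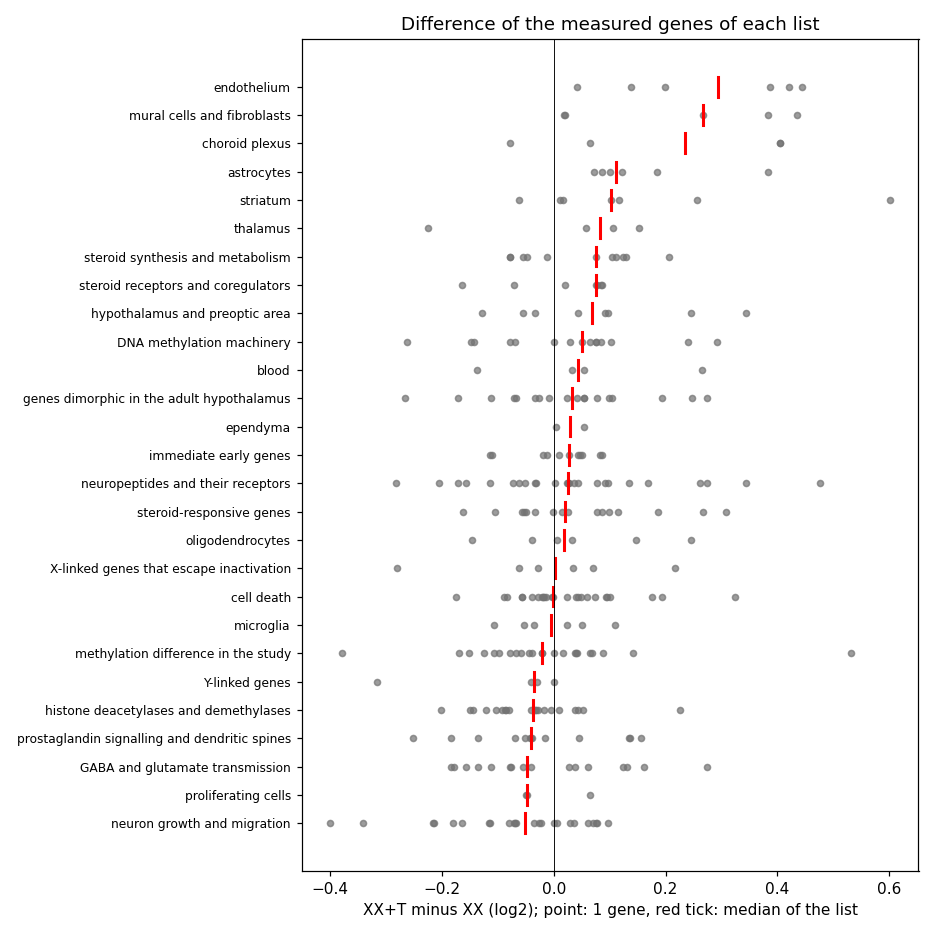
XX+T minus XX in log2 units (horizontal axis) for each measured gene of the lists with at least 2 measured genes, 1 list a line, sorted by median. Each point is 1 gene and each red tick the median of its list. The endothelial, mural and astrocyte genes all lie to the right of 0, and their medians are 0.29, 0.27 and 0.11.

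For context, XY pools were compared with the same 5 XX pools. By limma 5 probes were called, or 0.0364% of 13731, and 1544 probes, or 11.2%, had an unadjusted p under 0.05, against 3.68% for XX+T. The XY and XX pools did not overlap for 2.98% of probes. The median absolute difference was 0.0835 in XY against 0.064 in XX+T. The 5 probes lay in 4 genes. Ddx3y, of the Y chromosome, was 2.51 higher in XY (adjusted p 2.87e-06). Eif2s3y, also Y-linked, was at least 4.03-fold higher in XY (adjusted p 0.000577), a bound set against the lowest signal above background on each XX array, since the probe was not above background on any of them. The pair of Kdm6a probes were -0.90 and -0.82 (adjusted p 0.0144 and 0.0248). Ccdc88a was -0.65 (adjusted p 0.0193), with XY values of 9.47, 9.68, 9.88, 9.59 and 9.80. In XX+T, the same genes differed from XX by -0.32 for Ddx3y, -0.28 and -0.40 for Kdm6a and -0.41 for Ccdc88a. Eif2s3y and Kdm5d were below background on all XX and XX+T arrays. The Ddx3y probe and a Uty probe were above it on all of them, although neither group carries a Y chromosome. The mean of Uty, also Y-linked, was 7.54 in XX, 7.51 in XX+T and 7.65 in XY. What the Ddx3y and Uty probes measured in XX pools was not tested. The XX+T value of Ddx3y is therefore no value for the Y-linked gene.

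XX+T and XY were also set against each other directly. By limma 4 probes were called, or 0.0291%, and 695, or 5.06%, had an unadjusted p under 0.05. The called genes were Ddx3y (-2.82) and Eif2s3y, which was at least 4.07-fold higher in XY, and Kdm6a (0.62, adjusted p 0.0364) and Xist, a noncoding RNA of the silenced X, which were higher in XX+T. Xist was at least 2.1-fold higher (adjusted p 0.0266), by the same kind of bound. Ccdc88a was 0.24 higher in XX+T than in XY with an adjusted p of 0.963. Xist was 7.78, 7.72, 8.45, 7.91 and 8.87 in XX and 7.92, 8.24, 8.27, 8.40 and 8.99 in XX+T, a difference of 0.22 from -0.33 to 0.77, and it was below background on all 5 XY arrays. Alcam, a cell adhesion gene, was -0.32 in XX+T and -0.67 in XY. Both values are differences from the same XX pools, so that an XX pool that stands high or low moves both in the same direction, and no agreement between them was counted.

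**Figure D5:**
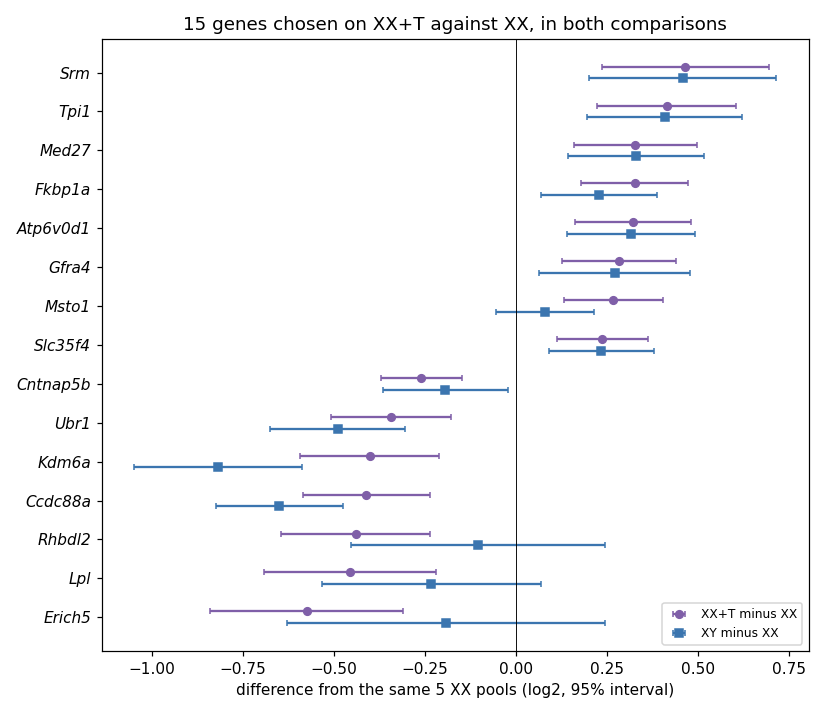
Differences from the same 5 XX pools in log2 units (horizontal axis) for 15 genes chosen by their p in XX+T against XX, with 95% limma intervals, for XX+T (circles) and XY (squares). Ddx3y is left out for its size. Erich5 and Rhbdl2 were 0.57 and 0.44 lower in XX+T and 0.19 and 0.10 lower in XY, where their intervals held 0.

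Whether the XX+T difference was particular to BNST/POA or to day 4 was tested by the difference of differences. Against the striatum of 4-day-old pups 0 of 13731 probes were called by limma, and 303, or 2.21%, had an unadjusted p under 0.05. Whether BNST/POA and striatum pools of the same number came from the same animals was not known. The fit treated all arrays as separate samples. Ccdc88a was -0.08 in the striatum against -0.41 in BNST/POA, an interaction of -0.33, and Erich5 was 0.17 against -0.57, an interaction of -0.74, with neither called. Both genes had been chosen by their p in BNST/POA, so the gap to the striatum may in part follow from that choice. Lpl was -0.71 in the striatum and -0.46 in BNST/POA. Against BNST/POA of 60-day-old mice 0 probes were called, and 643, or 4.68%, had an unadjusted p under 0.05. A call of 0 does not show that the differences were alike in both regions or at both ages.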

How the data were processed

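RNA from pools of 3 mice was amplified, labelled and hybridised to Illumina MouseRef-8 v1.1 beadchips. The authors deposited mean bead intensity, its standard error over beads, the number of beads and a detection p-value for 25697 probes on 57 arrays, and a log2 table that they had quantile normalized. Intensities were log2-transformed, quantile normalized over the 57 arrays and kept where the detection p was under 0.05 on at least 20 arrays, which left 13731 probes, within 5e-09 of the authors' log2 values. Per the labels and methods no array's chip or reader was known, so neither could enter a fit. The study's methods state that every beadchip carried a sample of each experimental group. Probe names came from the platform annotation and, for 13 kept probes, from a supplementary expression table, with symbols updated through RefSeq, and 774 kept probes had none.

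The 5 XX+T and 5 XX arrays were fitted with limma 3.58.1 in R 4.3.3 (8 residual degrees of freedom, Benjamini-Hochberg adjustment over all probes, 95% intervals). Pools were separate samples, so the p-values measure the spread between pools of unstated litters. XY against XX and XX+T against XY were fitted likewise, and the interactions on the 4 groups concerned. Genes were named by a rule: the 8 smallest p and 6 largest differences in each direction, the 8 widest within-group spreads, the 4 largest differences of each of 28 lists (281 of 427 genes measured), 18 fixed genes, and those called in XY. Other genes named were chosen after their values were seen. In lists the probe with the highest mean stands for a gene. Members and lists were chosen with earlier results of these data known. The scripts were tested on simulated data.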

Additional observations from a re-analysis of the deposited data

Results flagged for a closer look

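Within groups of 5 pools, 6 of 272 groups tested over the genes of the naming rule had 1 pool that stood apart by Dixon's criterion (gap over range above 0.71), which chance gives in about 1 in 20 groups. In XX pool 3, Sult1a1, a sulfotransferase, was 8.34 against 7.68 to 7.83 in the other XX pools. In XX+T pool 2, Bid, a pro-apoptotic gene, was 9.38 against 9.68 to 9.76. The other 4 lay in XX+T pool 1. There Zbtb33, a methyl-CpG binding factor, was 10.6 against 10.14 to 10.24, Aldh1l1, an astrocyte enzyme, 8.69 against 9.22 to 9.42, Cx3cr1, a microglial receptor, 8.86 against 9.2 to 9.29 and Tek, an endothelial receptor, 7.41 against 8.01 to 8.22.

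For 5 genes every XX+T pool lay on one side of the XX mean at day 4 in BNST/POA and every XX+T pool on the opposite side in another region or at another age. By limma's interaction test none was called. The share of all probes with this pattern was not counted, so the number of these genes is not read as an excess. Ubr1 and Slc35f4 had been chosen by their p in the day 4 BNST/POA comparison, which is 1 part of each interaction. Ubr1 differed by -0.34 in BNST/POA and 0.07 in striatum, an interaction of -0.42 (adjusted p 1), and Cish, a cytokine signalling inhibitor, by 0.19 and -0.09, an interaction of 0.28 (adjusted p 1). Between day 4 and day 60 in BNST/POA, Slc35f4 differed by 0.24 and -0.15, an interaction of 0.39 (adjusted p 0.387), Kdm5c, an X-linked histone demethylase, by 0.07 and -0.12, an interaction of 0.19 (adjusted p 0.973), and Cldn5 by 0.44 and -0.72, an interaction of 1.17 (adjusted p 0.387).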

How the results depend on the processing

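Neither the other normalizations, filters and fits nor leaving out any 1 pool called a probe in XX+T against XX, apart from the added covariates below. The smallest adjusted p from limma was less steady. From 0.9996 in the main fit it fell to 0.0715 with the 6 day 4 groups in the fit and 0.19 with array weights. It was 0.488 without the detection filter and 0.571 without XX pool 1. Its 505 probes at an unadjusted p under 0.05 became 841 with the 6 day 4 groups in the fit, 995 without the detection filter, 1261 with array weights and, added after seeing the data, 321 with 1 probe per gene. Without single pools they ran from 304 (without XX+T pool 3) to 962 (without XX pool 1), with 332 without XX+T pool 4. Covariates chosen after seeing the data gave 23 called and 1804 unadjusted (pool axis), or 27 and 1769 (own first component). The pool axis calls ran from 0 to 126 and its unadjusted count from 1260 to 2037 without single pools. The between-group share of 6.49% ran from 5.69% (without XX+T pool 4) to 13.8% (without XX pool 1), with 10.9% without XX+T pool 1. This range crosses the 11.1% given by number alone with all arrays, a reference that is somewhat larger with 1 array fewer. The 5 probes called in XY against XX became 163 with array weights, 21 with 3 groups in the fit and 2 to 7 without single pools. Leaving out XX pool 3 left 3 of them in number, and leaving out pool 2 or 5 of XX, or pool 2 or 4 of XY, left 2. The 4 called in XX+T against XY became 2 without the filter, 9 with weights and 2 to 4 without single pools, being 2 without XY pools 2, 3 or 4 or XX+T pools 2, 3 or 4. Both interactions kept 0 calls in the alternatives run.

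Replicate numbers did not pair the pools. Deviations of same-numbered XX and XX+T pools correlated at -0.814, -0.78, -0.428, -0.31 and 0.545, and no pool matched its own number best. With the replicate block 0 probes were called and 270 had an unadjusted p under 0.05, with 1 called in XY against XX and 2 in XX+T against XY.

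Of 1397 alternative values of differences given above for probes of the naming rule, 11 changed sign, none of them called in either fit. Over all 136 probes of that rule it was 172 of 5016. Differences given for genes outside the rule, such as Avp, Kiss1, Pde10a and Sgk1, and for further probes of a gene were not counted. Without single pools the difference ran from -0.25 to 1.08 for Ttr, from -0.614 to 0.0766 for Pmch, from -0.0221 to 0.224 for Fkbp5 and from -0.0267 to 0.268 for Oxt. Array weights gave 0.466 for Pmch and -0.0202 for Xist. Single pools also moved Kalrn (-0.57 without XX pool 4), Ptges3 (-0.16 without XX+T pool 3), Pgr (0.05 without XX pool 5) and Bcl2 (-0.0005 without XX pool 1) by over 1.5 times. Xist moved as much in both directions, to 0.40 without XX pool 5 and to 0.06 without XX+T pool 5. The medians of 18 of 28 lists changed sign without some pool. Median centring shifted the median of all probes by -0.01. The cause of these changes was not tested. The number of arrays limits the precision.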
